A study of Mus musculus with 6 samples.

Results

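Dleu2 and 8 other long noncoding RNA genes (Malat1, Neat1, Gas5, Snhg1, Snhg8, Snhg12, Kcnq1ot1 and Mir17hg) were followed in mouse osteoblasts, the bone-forming cells, with and without deletion of Mark3, a protein kinase known for acting on proteins that bind microtubules. They are 9 of the 51912 gene rows of the count table, found by looking up their Ensembl IDs in GENCODE M21, an annotation of the mouse build GRCm38. The genes were chosen with their counts and their Mark3-KO to WT differences in these libraries already known, so their levels and differences are given as a description and no test of them is offered as support. Of the 9, 8 passed the filter on low counts and were fitted together with 19017 genes in all, and Mir17hg did not pass.

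Each group had 3 libraries. The Mark3-KO libraries came from osteoblasts given an adenovirus that carries Cre recombinase, with the genotype Mark3-/-, and the WT libraries from osteoblasts given an adenovirus that carries GFP, with the genotype wild-type in the labels. Both kinds of culture were made from calvaria (skull caps) of 1 d old Mark3 flox/flox pups on the C57BL/6J background, so the WT cells carry loxP-flanked Mark3 alleles as well, and both had the virus for 24 h. Genotype and viral cargo changed together and cannot be told apart. Nothing in the labels tells if the 3 libraries of a group are separate cultures or litters, and the p-values therefore reflect the spread among the libraries, part or all of which may be technical. The comparison asks which transcripts differ 24 h after Cre was delivered to delete Mark3.

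Long noncoding RNAs act as RNA or carry smaller RNAs within them. Dleu2 is the host of miR-15a and miR-16-1, microRNAs that repress cyclins and Bcl2, and its human counterpart lies in a region often deleted in chronic lymphocytic leukaemia. Malat1 is a nuclear RNA found at splicing speckles, and Neat1 is the scaffold of paraspeckles, nuclear bodies that hold RNA-binding proteins. Gas5, Snhg1, Snhg8 and Snhg12 carry small nucleolar RNAs (snoRNAs, guides for the modification of ribosomal and other RNA) in their introns, and their spliced transcripts are mostly short-lived. Kcnq1ot1 is made from the paternal chromosome and silences its imprinted neighbours in cis, and Mir17hg is the host of the miR-17-92 cluster, known for promoting cell growth.

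The mature microRNAs of both microRNA hosts show why Dleu2 and Mir17hg are read with different target genes. They are RefSeq sequences on the GRCm38.p6 build, 5′ to 3′, with the seed (bases 2 to 8) in capitals. All 4 lie on chromosome 14, miR-15a-5p at chr14:61632075-61632096 and miR-16-5p at chr14:61631936-61631957 on the minus strand inside Dleu2, and miR-17-5p at chr14:115043684-115043706 and miR-92a-3p at chr14:115044476-115044496 on the plus strand inside Mir17hg.
miR-15a-5p: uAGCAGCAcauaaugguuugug
miR-16-5p: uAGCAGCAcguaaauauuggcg
miR-17-5p: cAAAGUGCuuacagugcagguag
miR-92a-3p: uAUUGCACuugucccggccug
The pair from Dleu2 shares 1 seed, whereas the pair from Mir17hg has 2 different seeds. The TruSeq RNA kit v2 used for library preparation selects polyadenylated RNA and does not mark strand. Mature microRNAs and snoRNAs were therefore not measured, and reads from overlapping genes on opposite strands cannot be told apart. How fully the kit captured each long noncoding RNA was not tested, so the Malat1 and Neat1 rows give levels in the selected RNA only.

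Counts summed to between 56925883 and 71445243 per library. CPM are counts scaled to a common library size, with TMM factors. Mark3 had 47.6, 52.4 and 44.1 CPM in the Mark3-KO libraries, against 113, 118 and 118 CPM in the WT libraries. The Mark3-KO mean was 41.4% of the WT mean (log2 fold change -1.27, SE 0.10, edgeR quasi-likelihood test with Benjamini-Hochberg adjustment, adjusted p = 0.0153). This adjusted p was 0.128 without WT replicate 2, and 0.0798 and 0.0681 without the second and last Mark3-KO library, while with GC correction (log2 fold change -1.50, edgeR adjusted p = 0.00331) Mark3 passed with each library left out. Fold changes across all genes ran with the GC content of the transcripts. The decile of tested genes with the lowest GC content (17.1 to 41.5%) had a median log2 fold change of 0.63, and the decile with the highest (57.3 to 75.5%) had a median of -1.33. The libraries of each group differed along this gradient as well. Median deviations of log2 CPM from each gene's mean in the lowest decile were 0.08, 0.32 and 0.54 in Mark3-KO replicates 1 to 3. In WT replicates 1 to 3 they were -0.50, -0.31 and -0.08. Dleu2, Snhg1 and Kcnq1ot1 lie in the lowest decile, so the fold changes of the genes and lists described are also given after a GC correction fitted per library. Summed levels of 10 osteoblast markers were 15536 to 22292 CPM in Mark3-KO libraries and 22564 to 43852 CPM in WT libraries. Sums of chondrocyte markers were 352 to 586 CPM in Mark3-KO and 674 to 1744 CPM in WT libraries, and those of skeletal muscle markers 2.26 to 5.74 CPM in Mark3-KO and 7.68 to 14.97 CPM in WT libraries. Macrophage and osteoclast markers summed to 404 to 460 CPM in Mark3-KO and 374 to 426 CPM in WT libraries, adipocyte markers to 24.4 to 27.1 CPM in Mark3-KO and 20.1 to 24.1 CPM in WT libraries, and endothelial markers to 4.26 to 4.59 CPM in Mark3-KO and 4.17 to 4.55 CPM in WT libraries. A sum does not show how its single markers went. Median log2 fold changes of the tested markers were -0.25 (osteoblast), -0.98 (chondrocyte), -1.42 (skeletal muscle), -0.18 (macrophage and osteoclast), 0.06 (adipocyte) and 0.05 (endothelial). With GC correction they were -0.18, -0.49, -0.83, 0.08, 0.03 and 0.06 in the same order, so the macrophage and osteoclast median changed sign. No listed marker was at 0 in the table, and the part of these marker levels in the values below was not tested.

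Dleu2 was the one gene of the 8 tested that passed the threshold of 0.05, and its level in Mark3-KO libraries was 32.1% of that in WT libraries. The gene (ENSMUSG00000097589) spans chr14:61602839-61682373 on the minus strand of GRCm38, with 11334 exon bases in 11 exon blocks over 15 annotated transcripts. It had 3.93, 4.41 and 5.60 CPM in the Mark3-KO libraries, against 13.2, 12.9 and 17.3 CPM in the WT libraries. Every Mark3-KO library was below every WT library, and the highest value of each group was in replicate 3. The counts behind these levels were 290, 263 and 344 in Mark3-KO libraries and 769, 713 and 1162 in WT libraries. The means were 4.65 ± 0.855 CPM in Mark3-KO and 14.5 ± 2.46 CPM in WT (SD, n = 3 each), a log2 fold change of -1.64 (edgeR, SE 0.20, adjusted p = 0.0493). Since these are bulk samples, fewer cells of a type and less RNA per cell cannot be told apart.

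Over all tested genes, 0.216% passed the same threshold in either direction and 0.168% were lower in Mark3-KO. Among 1868 tested long noncoding RNA genes, Dleu2 and Gm21982 passed, which is 0.107%. The adjusted p of Dleu2 lies close to the threshold and was 0.118 without WT replicate 1, 0.152 without WT replicate 2, 0.154 without the second Mark3-KO library and 0.113 without the last, while its log2 fold change stayed between -1.80 and -1.50 with each library left out. The GC content of Dleu2 is 39.5%, and the median log2 fold change of its decile of genes was 0.63, in the opposite direction. After GC correction Dleu2 had a log2 fold change of -2.26 (edgeR adjusted p = 0.000794), it was again the 1 of the 8 that passed, where 0.405% of all tested genes did, and it passed with each of the 6 libraries left out.

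**Figure D1:**
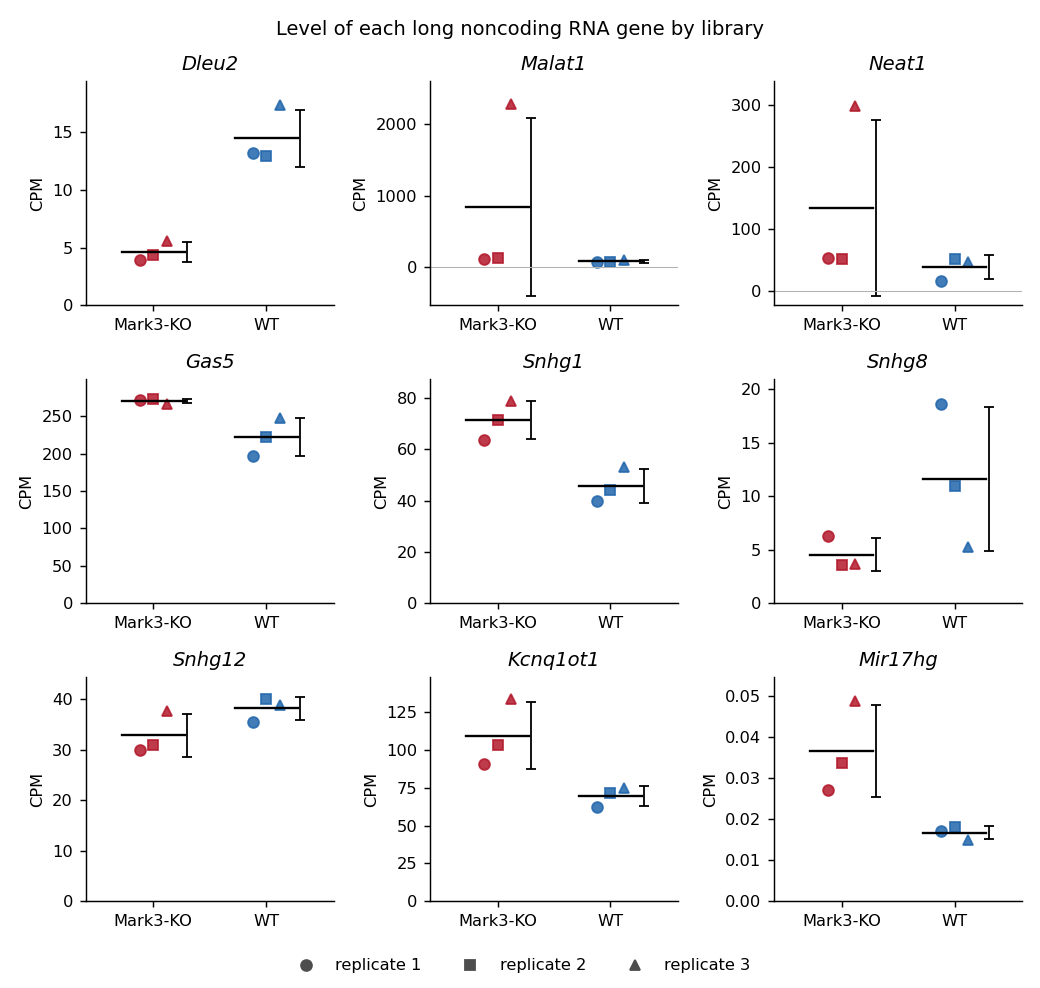
Level of each of the 9 genes in CPM on TMM-scaled library sizes, with Mark3-KO to the left and WT to the right of each panel. Points are libraries, horizontal lines are means and vertical bars the SD of 3 libraries, and the bars of Malat1 and Neat1 in Mark3-KO reach below 0 because 1 library stands far above the rest. The Dleu2 panel has all Mark3-KO points at or below 5.60 CPM and all WT points at or above 12.9 CPM.

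No gene listed from the stretch of chromosome 14 around Dleu2 passed the threshold in either direction. Of 12 listed genes, 11 were tested and their median log2 fold change was 0.48, against 0.02 over all tested genes. The stretch is wide, since Rcbtb1, Phf11a, Setdb2 and Cab39l lie 2366, 2305, 2162 and 2017 kb from Dleu2. Kpna3 lies 163 kb away, and of the listed genes Trim13 and Kcnrg overlap the span of Dleu2. At an unadjusted p below 0.05, 6 of the 11 were higher and 0 lower in Mark3-KO (edgeR), where 20.8% of all tested genes were higher and 24.8% lower, and DESeq2 called 5 higher and 0 lower at an adjusted p below 0.05, where it called 14.8% of all genes higher and 22.2% lower. The DESeq2 counts of the other lists are at the same adjusted p. Setdb2, a histone methyltransferase, averaged 20.8 ± 2.12 CPM in Mark3-KO and 12.6 ± 1.28 CPM in WT (log2 fold change 0.72, edgeR adjusted p = 0.0506). Kpna3, an importin of the nuclear import machinery, averaged 158 ± 22.3 CPM in Mark3-KO and 99.1 ± 13.3 CPM in WT (log2 fold change 0.67, edgeR adjusted p = 0.0506). After GC correction the median of the 11 was 0.07, and the log2 fold changes were 0.27 for Setdb2 and 0.07 for Kpna3.

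Trim13, a RING-type ubiquitin ligase gene on the other strand, overlaps the span of Dleu2 by 3108 bases without sharing exon bases. It averaged 11.5 ± 1.51 CPM in Mark3-KO and 8.26 ± 1.63 CPM in WT, with log2 fold changes of 0.48 without and -0.01 with GC correction, so its direction depends on that correction. Kcnrg, a potassium channel regulator gene inside Dleu2 on the other strand, averaged 0.636 CPM in Mark3-KO and 0.442 CPM in WT (log2 fold change 0.51, edgeR adjusted p = 0.177; 0.17 with GC correction). The gene models Gm27010, Gm37420 and Gm37472 lie inside Dleu2 on its own strand without sharing its exons, and their log2 fold changes were 0.20, 0.74 and 0.63, or -0.42, 0.17 and 0.24 with GC correction, which turned the sign of Gm27010. None of these neighbours had a negative value as large as that of Dleu2, and the difference between Dleu2 and its neighbours was not tested. The rows of the Mir15a and Mir16-1 precursors held at most 2 counts per library and carry no information on the microRNAs.

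**Figure D2:**
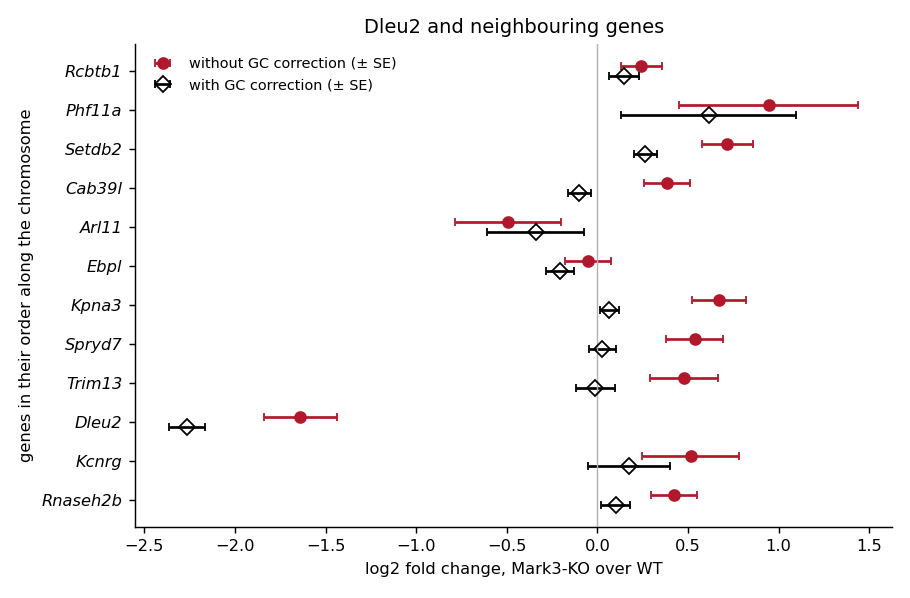
Log2 fold change of Mark3-KO over WT for Dleu2 and the 11 tested genes listed from its stretch of chromosome 14, in their order along it, without (filled) and with (open) GC correction. The genes lie up to 2366 kb from Dleu2. Bars are the standard error from 3 libraries per group, and Dleu2 stands at -1.64 and -2.26 while the other values lie between -0.49 and 0.94.

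Of 12 listed target genes of miR-15 and miR-16, all were tested, and Cdk6 passed the threshold. The list was chosen with earlier results of these data known, so its values are a description. A link between Cdk6 and Dleu2 or its microRNAs was not tested. Cdk6, a kinase that drives entry into the cell cycle, had 52.9, 60.0 and 54.5 CPM in the Mark3-KO libraries, against 13.3, 12.2 and 12.6 CPM in the WT libraries. The groups did not overlap, and each varied little within itself. Cdk6 rose in Mark3-KO by 2.13 on the log2 scale (SE 0.11, adjusted p = 0.00276 by edgeR), and by 1.996 with GC correction. Without WT replicate 2 its adjusted p was 0.0841 (edgeR), and with GC correction it passed with each library left out. Over all tested genes, 0.0473% passed as higher in Mark3-KO. The other 11 did not pass, and at an unadjusted p below 0.05 the list had 4 higher and 3 lower members (edgeR; DESeq2 called 4 and 3 at an adjusted p below 0.05), with a median log2 fold change of 0.08, or 0.07 with GC correction. By the same measures 20.8% of all tested genes were higher and 24.8% lower in edgeR, and 14.8% and 22.2% in DESeq2. Ccnd3, the gene of cyclin D3, a partner of Cdk6, averaged 35.2 CPM in Mark3-KO and 130 CPM in WT (log2 fold change -1.89, edgeR adjusted p = 0.0506; -0.79 with GC correction).

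The 3′ UTR of Cdk6 on chromosome 5 (10217 bases in the longest annotated one) holds 3 matches to TGCTGCT, the reverse complement of the seed that miR-15a and miR-16 share, searched on the transcript strand. The matches at bases 3754 and 5177 of this UTR are shown here in windows of 30 bases of GRCm38 with the match in capitals, and the last, at base 5180, overlaps the one before it.
Cdk6 at 3754: cccaagttgcacagggTGCTGCTatctcaa
Cdk6 at 5177: taataaagtgccaaatTGCTGCTgcttctt
Every listed target gene held at least 1 such match. Those with 2 were Fgfr1, Wee1 and Cdc25a, with log2 fold changes of -0.88, 0.45 and 0.05, or -0.19, 0.49 and 0.06 with GC correction. Ccnd3, at -1.89, held 1. Of 14087 tested genes with an annotated 3′ UTR, 17.6% held 1 such match and 6.91% held 2 or more. Longer 3′ UTRs held more matches, with median lengths of 934 bases at no match, 2030 at 1 and 3189 at 2 or more. Genes with no match had a median log2 fold change of -0.09, those with 1 match of -0.05 and those with 2 or more of 0.03, and each of these medians was -0.01 after GC correction. A match describes the letters and says nothing on whether a microRNA acts there.

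Malat1 and Neat1 were each high in 1 library, Mark3-KO replicate 3. Malat1 (ENSMUSG00000092341, chr19:5795690-5802672, minus strand, 6983 exon bases) had 116, 134 and 2277 CPM in the Mark3-KO libraries, against 78.7, 68.6 and 103 CPM in the WT libraries. All Mark3-KO values were above all WT values, but replicate 3 was 17.0 times the highest other library and the other 2 Mark3-KO libraries averaged 125 CPM. The log2 fold change was 3.34 (SE 1.20, adjusted p = 0.0777 by edgeR), and 0.58 (edgeR adjusted p = 0.148) without Mark3-KO replicate 3. With GC correction it was 2.72 over all libraries and 0.19 without that one. The mean ± SD of the Mark3-KO group, 843 ± 1243 CPM against 83.4 ± 17.6 CPM in WT (n = 3 each), rests on the same library. Malat1 passed the threshold without Mark3-KO replicate 1 (edgeR adjusted p = 0.0396).

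Neat1 (ENSMUSG00000092274, chr19:5824708-5845478, minus strand, 20771 exon bases), which lies beside Malat1, had 52.7, 51.4 and 298 CPM in the Mark3-KO libraries, against 16.8, 51.7 and 47.4 CPM in the WT libraries. WT replicate 2 lay between the first 2 Mark3-KO libraries, Mark3-KO replicate 3 was 5.66 times the highest other library, and WT replicate 1 was the lowest. The log2 fold change was 1.79 (SE 0.80, adjusted p = 0.126 by edgeR), and 0.43 (edgeR adjusted p = 0.543) without Mark3-KO replicate 3. With GC correction it was 1.70.

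Within Malat1, the table has a separate row for Gm27694, a small RNA model of 86 bases that lies within it. It held 2150, 1925 and 2896 counts in the Mark3-KO libraries and 1406, 1563 and 2053 counts in the WT libraries. Per kilobase its level was 339, 376 and 548 CPM in the Mark3-KO libraries and 280, 330 and 356 CPM in the WT libraries, where the Malat1 row had 16.7, 19.2 and 326 CPM per kilobase in Mark3-KO and 11.3, 9.83 and 14.7 CPM per kilobase in WT. The small row was thus 19.6 to 33.6 times as dense as the Malat1 row in 5 libraries and 1.68 times as dense in Mark3-KO replicate 3. In that library the Malat1 row stood far above the other 5 libraries, while the row of Gm27694, at 548 CPM per kilobase, was followed by 376 in Mark3-KO replicate 2. Levels per kilobase were divided by annotated exon bases alone. No correction was made for how short the small row is, so the densities of the 86-base row and of Malat1 compare only loosely. How reads were shared between nested genes is not given in the sources used here. Added to the Malat1 row, the nested counts gave 146, 166 and 2324 CPM in Mark3-KO and 103, 97.0 and 134 CPM in WT, with a log2 fold change of 2.98 (edgeR adjusted p = 0.0832).

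Neat1 holds 3 such rows, Gm27533, Gm28006 and Gm27505, of 384 bases together. Their summed level per kilobase was 18.9, 7.69 and 9.96 CPM in the Mark3-KO libraries and 36.6, 32.5 and 16.1 CPM in the WT libraries. The Neat1 row had 2.54, 2.47 and 14.3 CPM per kilobase in Mark3-KO and 0.808, 2.49 and 2.28 CPM per kilobase in WT. In Mark3-KO replicate 3, where the Neat1 row was highest, the small rows were not.

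**Figure D3:**
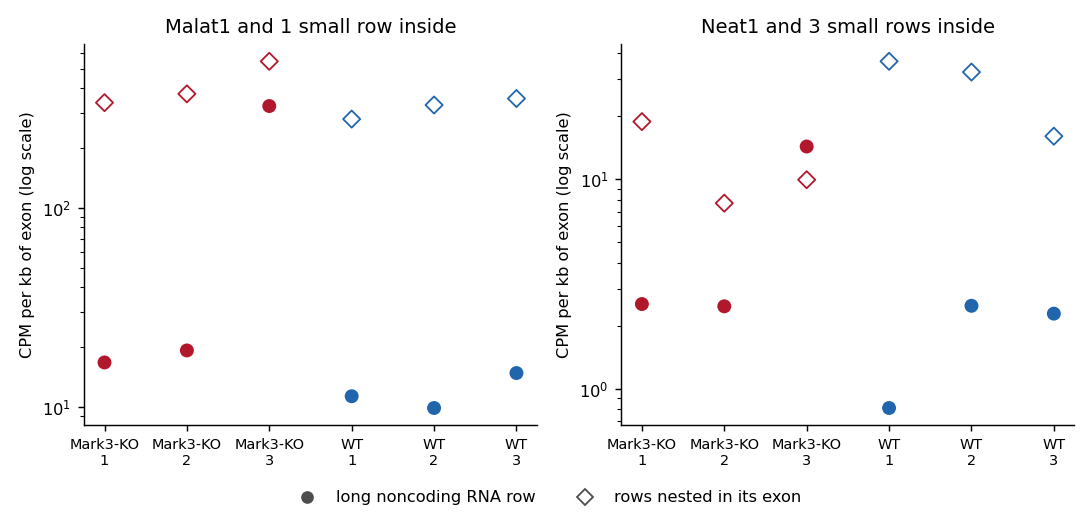
Level per kilobase (CPM per kilobase, log axis) of the Malat1 and Neat1 rows and of the small RNA rows nested within them, by library, Mark3-KO to the left of WT. Levels are not corrected for how short the small rows are. The Malat1 row of Mark3-KO replicate 3 stands at 326 CPM per kilobase against at most 19.2 in any other library, while its nested row runs from 280 to 548.

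Of 15 listed paraspeckle proteins, which assemble on Neat1, all were tested and 0 passed the threshold. At an unadjusted p below 0.05 in edgeR, 8 were higher and 3 lower in Mark3-KO, and DESeq2 called 7 and 3 at its adjusted p. Over all tested genes, 20.8% were higher and 24.8% lower in edgeR, and DESeq2 called 14.8% higher and 22.2% lower. The list's median log2 fold change was 0.26, or 0.02 with GC correction. Hnrnpk averaged 789 CPM in Mark3-KO and 564 CPM in WT (log2 fold change 0.49, edgeR adjusted p = 0.0506), and 0.03 with GC correction. Rbm14, an RNA-binding protein needed for paraspeckles, averaged 22.3 CPM in Mark3-KO and 45.1 CPM in WT (log2 fold change -1.02, edgeR adjusted p = 0.0506), and -0.06 with GC correction.

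Gas5, Snhg1, Snhg8 and Snhg12, the snoRNA hosts, did not share a direction. Gas5, known for accumulating when growth stops and for being removed by nonsense-mediated decay while it is translated (ENSMUSG00000053332, chr1:161034422-161038539, plus strand, 3760 exon bases over 25 transcripts), had 272, 272 and 266 CPM in the Mark3-KO libraries, against 197, 222 and 248 CPM in the WT libraries. The groups did not overlap, the Mark3-KO libraries were close together, and the WT libraries spread more widely. The means were 270 ± 3.25 CPM in Mark3-KO and 222 ± 25.7 CPM in WT (SD, n = 3 each), a log2 fold change of 0.28 (edgeR, SE 0.11, adjusted p = 0.0875). The GC correction turned its sign, to -0.19 (edgeR adjusted p = 0.251).

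Snhg1 (ENSMUSG00000108414, chr19:8723475-8726443, plus strand, 2969 exon bases), host of several box C/D snoRNAs, had 63.7, 71.5 and 78.8 CPM in the Mark3-KO libraries, against 40.0, 44.2 and 53.0 CPM in the WT libraries. Every Mark3-KO library was above every WT library. Its log2 fold change was 0.64 (SE 0.14, adjusted p = 0.0506 by edgeR), close to the median of 0.63 for its decile of GC content, and 0.09 with GC correction.

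Snhg8 (ENSMUSG00000104960, chr3:123507552-123508404, minus strand, 853 exon bases), host of Snora24, had 6.32, 3.63 and 3.68 CPM in the Mark3-KO libraries, against 18.6, 10.9 and 5.23 CPM in the WT libraries. The groups overlapped, since Mark3-KO replicate 1 was above WT replicate 3, and WT replicate 1 was by far the highest. The log2 fold change was -1.35 (SE 0.47, adjusted p = 0.0737 by edgeR), -0.83 without WT replicate 1 (edgeR adjusted p = 0.215) and -1.52 with GC correction. Snhg12 (ENSMUSG00000086290, chr4:132308623-132311024, plus strand, 2402 exon bases) had 29.9, 30.8 and 37.7 CPM in the Mark3-KO libraries, against 35.5, 40.0 and 38.8 CPM in the WT libraries. The groups overlapped, and the log2 fold change was -0.22 (SE 0.13, adjusted p = 0.229 by edgeR) and -0.33 with GC correction.

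The first transcribed bases of these hosts are shown because such genes are known for starts of the 5′ TOP kind, a C followed by a run of C and T, which ties translation to growth signals. The sequences are RefSeq starts on GRCm38.p6, with 15 bases before the start in lower case and the first 30 bases in capitals. They lie at chr1:161034586-161034630 and chr1:161035151-161035195 (Gas5, plus strand), chr19:8723472-8723516 (Snhg1, plus), chr3:123508307-123508351 (Snhg8, minus) and chr4:132308663-132308707 (Snhg12, plus).
Gas5 first start: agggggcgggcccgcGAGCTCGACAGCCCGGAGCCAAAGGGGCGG
Gas5 second start: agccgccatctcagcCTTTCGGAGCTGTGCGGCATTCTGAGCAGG
Snhg1: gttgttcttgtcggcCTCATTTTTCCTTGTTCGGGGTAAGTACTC
Snhg8: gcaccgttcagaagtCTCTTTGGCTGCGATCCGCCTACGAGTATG
Snhg12: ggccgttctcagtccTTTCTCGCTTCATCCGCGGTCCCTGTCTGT
A C at the first base followed by at least 4 C or T bases was found at the second Gas5 start and at the Snhg8 start, searched on the transcript strand at the first base alone. Among all 32851 RefSeq promoter windows, 2.51% had it. Of the 9 RefSeq starts found for 8 of the genes, these 2 were the ones that had it. Gas5 and Snhg8, which share this start, had log2 fold changes of 0.28 and -1.35, or of -0.19 and -1.52 with GC correction.

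The snoRNAs inside these 4 hosts have 24 rows of their own, with 1 to 15 counts per library, and 9 of them had exactly 1 count in every library. Snora24 inside Snhg8 had the most, 13, 9 and 15 counts in Mark3-KO and 11, 12 and 11 counts in WT. These rows hold too few counts for a comparison at this depth.

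Of 16 other listed snoRNA hosts, 12 were tested and 0 passed the threshold. At an unadjusted p below 0.05 in edgeR, 4 were higher and 0 lower in Mark3-KO, and DESeq2 called 3 and 0 at its adjusted p. Beside this and the following lists stand the shares over all tested genes. They were 20.8% higher and 24.8% lower in edgeR, and 14.8% and 22.2% in DESeq2. For these snoRNA hosts, the medians are set against those of long noncoding RNA genes. Their median log2 fold change was 0.21, or 0.22 with GC correction, against 0.24, or 0.13 with GC correction, over all tested long noncoding RNA genes. Snhg3 averaged 11.1 CPM in Mark3-KO and 6.04 CPM in WT (log2 fold change 0.88, edgeR adjusted p = 0.0506; 0.42 with GC correction). Snhg6 averaged 31.2 CPM in Mark3-KO and 23.1 CPM in WT (log2 fold change 0.43, edgeR adjusted p = 0.0506), with the opposite sign, -0.12, after GC correction. Of 14 snoRNP proteins and assembly factors 0 passed, with 4 higher and 3 lower at an unadjusted p below 0.05 (edgeR; DESeq2 called 4 and 3 at its adjusted p), and a median log2 fold change of 0.00, or -0.02 with GC correction. Naf1, an assembly factor of box H/ACA particles, had a log2 fold change of 0.76, or 0.56 with GC correction, and Nufip1, one of box C/D particles, of 0.42, or 0.05 with GC correction (edgeR adjusted p = 0.0506 for both before correction). Of 14 nonsense-mediated decay factors 0 passed, with 4 higher and 7 lower at an unadjusted p below 0.05 (edgeR; DESeq2 called 1 and 4), against the same 20.8% and 24.8% of all tested genes, and a median log2 fold change of -0.20, or -0.09 with GC correction. Upf1, the helicase at the centre of that pathway, averaged 27.2 CPM in Mark3-KO and 75.3 CPM in WT (log2 fold change -1.47, edgeR adjusted p = 0.0506; -0.33 with GC correction), and Smg5, which acts with it, had a log2 fold change of -0.59 (edgeR adjusted p = 0.0506; -0.05 with GC correction).

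**Figure D4:**
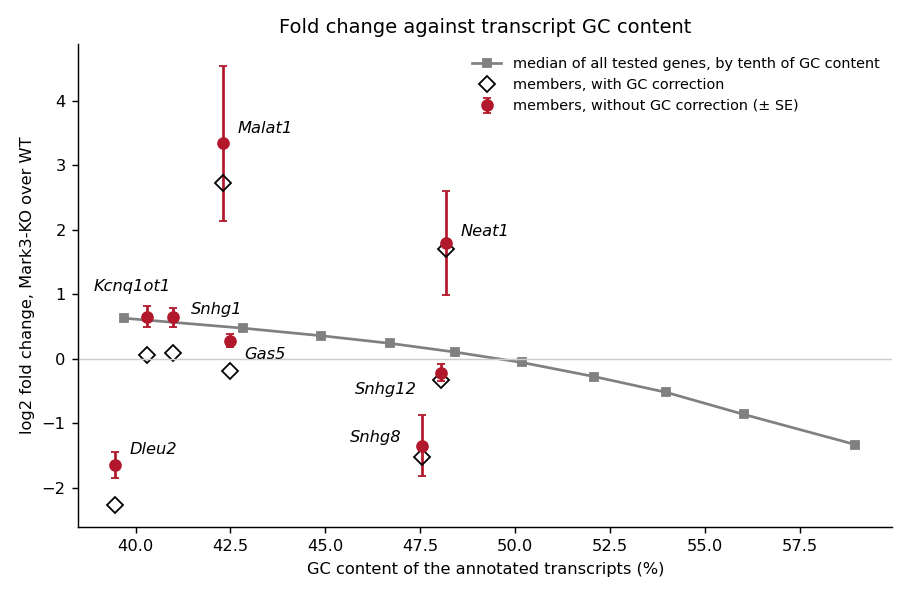
Log2 fold change of Mark3-KO over WT for the 8 tested genes against the GC content of their annotated transcripts, without (filled, with SE) and with (open) GC correction, and the median of all tested genes by decile of GC content (squares at the median GC content of each decile). Snhg1 and Kcnq1ot1 lie on the line of medians, Gas5 lies below it, and Dleu2, at -1.64, lies far below the 0.63 of its decile.

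Kcnq1ot1 (ENSMUSG00000101609, chr7:143203458-143296549, minus strand) is annotated as 1 unspliced transcript of 93092 bases. It had 90.6, 103 and 134 CPM in the Mark3-KO libraries, against 62.2, 71.7 and 74.7 CPM in the WT libraries. Every Mark3-KO library was above every WT library, with Mark3-KO replicate 3 the highest. The means were 109 ± 22.0 CPM in Mark3-KO and 69.5 ± 6.55 CPM in WT (SD, n = 3 each), a log2 fold change of 0.65 (edgeR, SE 0.16, adjusted p = 0.0506) and of 0.05 with GC correction. Kcnq1, the potassium channel gene on the other strand, shares 121 exon bases with it and had 1, 1 and 2 counts in Mark3-KO and 0, 8 and 7 counts in WT.

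Of 12 listed genes of the Kcnq1 imprinted domain, 9 were tested and 0 passed the threshold. At an unadjusted p below 0.05 in edgeR, 1 was higher and 6 lower in Mark3-KO, and DESeq2 called 1 and 6 at its adjusted p. Over all tested genes, 20.8% were higher and 24.8% lower in edgeR, and DESeq2 called 14.8% higher and 22.2% lower. The median log2 fold change was -0.71, or -0.28 with GC correction. Osbpl5, an oxysterol-binding protein gene, averaged 40.6 CPM in Mark3-KO and 106 CPM in WT (log2 fold change -1.39, edgeR adjusted p = 0.0506), and -0.34 with GC correction. Tnfrsf23, a decoy receptor gene, averaged 41.9 CPM in Mark3-KO and 29.4 CPM in WT (log2 fold change 0.51, edgeR adjusted p = 0.0506; 0.39 with GC correction).

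Mir17hg (ENSMUSG00000089726, chr14:115042879-115046727, plus strand, 3536 exon bases) had 2, 2 and 3 counts in the Mark3-KO libraries and 1, 1 and 1 counts in the WT libraries, or 10 counts in all. It is not an abundant RNA in these libraries, and its level could not be compared at this depth. Mir92-1, a precursor of miR-92a inside it, had 6, 9 and 10 counts in Mark3-KO and 1, 6 and 7 counts in WT, and the rows of the other 5 precursors were at 0. Of 13 listed target genes of the cluster, all were tested and 0 passed the threshold, with 3 higher and 4 lower at an unadjusted p below 0.05 (edgeR; DESeq2 called 3 and 4 at its adjusted p). Over all tested genes, 20.8% were higher and 24.8% lower in edgeR, and DESeq2 called 14.8% higher and 22.2% lower. The list's median log2 fold change was -0.20, and 0.07, with the opposite sign, after GC correction. Bcl2l11, the gene of the cell death protein Bim, averaged 11.9 CPM in Mark3-KO and 22.0 CPM in WT (log2 fold change -0.88, edgeR adjusted p = 0.0506; -0.92, adjusted p = 0.0184, with GC correction, where 4 of the 6 leave-outs, all but WT replicate 3 and Mark3-KO replicate 1, put it at 0.0507 to 0.0966). Thbs1, the gene of thrombospondin 1, averaged 11122 CPM in Mark3-KO and 14726 CPM in WT (log2 fold change -0.40, edgeR adjusted p = 0.0506; -0.34 with GC correction).

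Of 14 genes of microRNA processing and Argonaute complexes 0 passed the threshold, with 2 higher and 3 lower at an unadjusted p below 0.05 (edgeR; DESeq2 called 2 and 3 at its adjusted p) and a median log2 fold change of 0.03, or -0.03 with GC correction. The shares over all tested genes were 20.8% higher and 24.8% lower in edgeR, and 14.8% and 22.2% in DESeq2. Tnrc6b, a partner of Argonaute, averaged 60.8 CPM in Mark3-KO and 104 CPM in WT (log2 fold change -0.78, edgeR adjusted p = 0.0506; -0.98, adjusted p = 0.0489, with GC correction, and 0.157 to 0.228 in the same 4 leave-outs). Its relative Tnrc6c had a log2 fold change of -0.82 (edgeR adjusted p = 0.0506; -0.47 with GC correction). Of 30 other listed microRNA hosts and named long noncoding RNAs, 20 were tested and 0 passed, with 3 higher and 3 lower at an unadjusted p below 0.05 (edgeR; DESeq2 called 1 and 3) and a median log2 fold change of 0.23, or 0.01 with GC correction. Tug1 averaged 272 CPM in Mark3-KO and 151 CPM in WT (log2 fold change 0.85; 0.24 with GC correction), and Mirg, a microRNA host of the Dlk1-Dio3 imprinted region, 6.80 CPM in Mark3-KO and 12.1 CPM in WT (log2 fold change -0.83; -0.56 with GC correction), both with an edgeR adjusted p of 0.0506 before correction. Over all 10 lists, 134 of 152 distinct genes were tested and Cdk6 was the 1 that passed. At an unadjusted p below 0.05, 53.0% of the 134 passed in edgeR, where 45.7% of all tested genes did.

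In CPM per kilobase of exon, Gas5 was the highest in WT at a mean of 59.1, and had 71.9 in Mark3-KO. Snhg12 averaged 13.7 in Mark3-KO and 15.9 in WT, Snhg1 24.0 in Mark3-KO and 15.4 in WT, Snhg8 5.32 in Mark3-KO and 13.6 in WT, and Malat1 121 in Mark3-KO and 11.9 in WT. Neat1 averaged 6.45 in Mark3-KO and 1.86 in WT, Dleu2 0.410 in Mark3-KO and 1.28 in WT, Kcnq1ot1 1.17 in Mark3-KO and 0.747 in WT, and Mir17hg 0.0103 in Mark3-KO and 0.00473 in WT. In WT, Snhg12, Snhg1, Snhg8 and Malat1 were each within the spread of their neighbours in this order, and so were Neat1 and Dleu2. The mean of Malat1 in Mark3-KO rests on replicate 3, and the other 2 libraries, at 16.7 and 19.2, lie among the values of the snoRNA hosts. In every library but Mark3-KO replicate 3, the 86-base row nested in Malat1 was 19.6 to 33.6 times as dense as the Malat1 row. How reads were shared between nested rows is not given, so levels and ranks of Malat1 and Neat1 describe their own rows only. Among the 1868 tested long noncoding RNA genes, ranked by mean CPM over the 6 libraries, Malat1 was number 5, Gas5 11, Kcnq1ot1 18, Neat1 19, Snhg1 23, Snhg12 34, Dleu2 100 and Snhg8 113. Without Mark3-KO replicate 3 the order turned, with Gas5 number 10, Malat1 17, Kcnq1ot1 18, Snhg1 23, Neat1 30, Snhg12 34, Dleu2 96 and Snhg8 105.

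Across the 8 tested genes, 5 had higher and 3 lower means in Mark3-KO, and with GC correction 4 were higher and 4 lower. The groups did not overlap for Dleu2, Malat1, Gas5, Snhg1 and Kcnq1ot1, that is 5 of 8. The groups did not overlap for 53.3% of all tested genes and for 30.4% of tested long noncoding RNA genes, and nothing is read from the 5, since the genes were chosen on this contrast. DESeq2 called Dleu2, Snhg1, Snhg8 and Kcnq1ot1, where it called 37% of all genes it gave an adjusted p, and it gave none for Malat1. The median log2 fold change of all tested long noncoding RNA genes was 0.24, or 0.13 with GC correction, with 1265 higher and 603 lower.

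**Figure D5:**
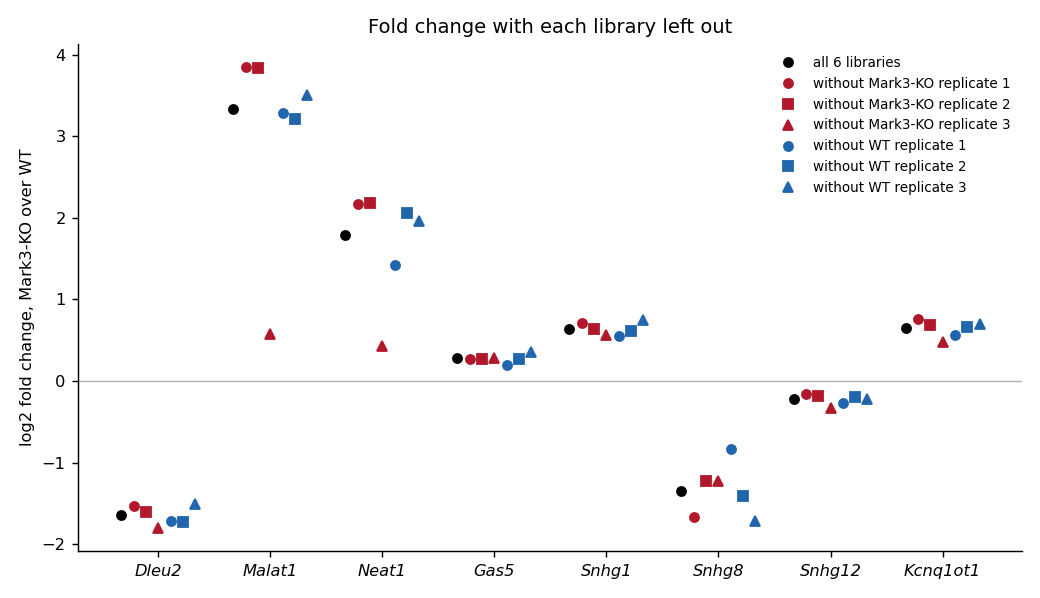
Log2 fold change of Mark3-KO over WT for the 8 tested genes with all 6 libraries (black) and with each library left out (red for a Mark3-KO library, blue for a WT library). Malat1 drops to 0.58 and Neat1 to 0.43 without Mark3-KO replicate 3, Snhg8 comes to -0.83 without WT replicate 1, and Dleu2 stays between -1.80 and -1.50.

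The genes with the pattern most like each member over the 6 libraries were found by the root mean square difference of log2 CPM, centred on each gene's mean, among genes with a mean of at least 1 CPM. For Dleu2 they were Mief1 (difference 0.24), a gene of mitochondrial division with a log2 fold change of -1.62 (-1.42 with GC correction), and the pseudogene Gm11703 (0.26). For Malat1 they were Gm43549 (0.44) and Gm10233 (0.48), and for Neat1 Gm36298 (0.60) and Gm6430 (0.64). These differences are larger than those of the nearest genes of the other 6. For Gas5 they were Parl (0.0078) and Mre11a (0.014), for Snhg1 Atad5 (0.022) and Tmem167 (0.025), for Snhg8 Podxl2 (0.092) and Gm5963 (0.093), for Snhg12 Abcc9 (0.052) and Kmt5b (0.055), and for Kcnq1ot1 Cmpk1 (0.043) and Gm14391 (0.044). All 8 profiles share the 6 libraries, their depth and their GC gradient.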

How the data were processed

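The authors deposited gene counts, whole numbers for 51912 Ensembl IDs in 6 libraries. HISAT2 2.0.5, StringTie, FastQC, DESeq2 and the build GRCm38 are named in the submitters' processing notes. Their roles, and how reads of nested or overlapping genes were counted, are not given in the sources used here. IDs were matched to GENCODE release M21 (193 did not match), and 18804 genes had no counts.

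Mark3-KO was compared with WT in edgeR 4.0.16 (R 4.3.3) with filterByExpr, TMM scaling, the quasi-likelihood test and Benjamini-Hochberg adjustment over 19017 genes. Each SE is the size of the log2 fold change divided by the root of its F statistic. CPM use TMM-scaled library sizes. The GC correction is a natural spline with 6 degrees of freedom per library, entered as offsets. Alternatives used DESeq2 1.42.0, limma 3.58.1, other scalings and filters, the replicate number as a block, and each library left out. The sums with nested rows, and GC correction without each library, were added after seeing the data.

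The genes and lists were chosen with earlier results of these data known. Named beyond them are Mark3, the 2 smallest p in each list, up to 3 nested or overlapping genes per gene, and the 2 genes most alike. Sequences are from RefSeq (GRCm38.p6) and GENCODE; Neat1 is named only. The total depth limits precision for genes of few counts.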

Additional observations from a re-analysis of the deposited data

How the results depend on the processing

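The number of genes past the threshold moved widely with the setting, and many of the adjusted p-values named lie at 0.0506. All genes past the threshold numbered 41, and 40 with DESeq2 size factors, 61 without a filter, 27 with limma-voom, 77 with GC correction, 4510 with library size alone (2190 higher, against 9 of 41 higher in the fit reported), 5266 with at least 1 CPM in 3 libraries and 6894 with the DESeq2 Wald test. With each library left out they ranged from 0 (without WT replicate 2, by edgeR, with 5929 at an unadjusted p below 0.05) to 6460 (without WT replicate 3); 14 passed without WT replicate 1, and 6265, 3 and 5 without the first, second and last Mark3-KO library. With GC correction and each library left out they ranged from 12 to 1276, with 561 without WT replicate 3 and 64 without Mark3-KO replicate 3. Genes tested numbered 19017 in the fit reported, 33108 without a filter, 14086 with at least 1 CPM in 3 libraries and 19515 to 19718 with a library left out. Of the 8 tested long noncoding RNA genes, 1 passed, and 3 with library size alone, 3 with at least 1 CPM, 4 by DESeq2, 0 by limma-voom (adjusted p of Dleu2 0.0553), and 0 to 5 with each library left out (5 without WT replicate 3, namely Dleu2, Gas5, Snhg1, Snhg8 and Kcnq1ot1, and 4 without Mark3-KO replicate 1, namely Dleu2, Malat1, Snhg1 and Kcnq1ot1). Scaling by library size alone moved the median over all genes by 0.11 on the log2 scale, to 0.13. Of the list genes 1 passed, and 42 with library size alone, 50 with at least 1 CPM, 60 by DESeq2, 3 with GC correction, 0 to 58 with each library left out, and 1 to 16 with each left out under GC correction. In the fit reported, Snhg1, Kcnq1ot1 and Setdb2 shared 1 edgeR adjusted p, 0.0506. The value they shared was 0.0466 with library size alone, 0.0430 with at least 1 CPM in 3 libraries and 0.151 without WT replicate 1. Genes that share such a value pass or miss the threshold together, so a small shift in it moves many genes across 0.05. Why the shared value shifts was not tested.

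The labels do not say whether replicate numbers pair the libraries. The correlations of same-numbered deviations from the group means were 0.329, -0.032 and 0.292. Mark3-KO replicates 1 and 3 correlated best with the WT library of the same number, and Mark3-KO replicate 2 with another number. With 3 libraries per group these correlations cannot decide whether the libraries are paired. The replicate block gave 8487 of the 19017 tested genes, 4 of the 8 and 79 of the 134 tested list genes. With GC correction it gave 1003 genes, 1 of the 8 and 13 list genes.

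Dleu2 kept its direction under all 23 settings (log2 fold change -2.33 to -1.50, adjusted p 1.66e-10 to 0.154). The GC correction turned Gas5 to -0.19 (-0.19 with the block, and -0.28 to -0.10 with a library left out, -0.18 without WT replicate 2). It turned Snhg6 to -0.12 (-0.12 with the block, and with a library left out -0.19, -0.13 and -0.035 for Mark3-KO replicates 1 to 3 and -0.021, -0.19 and -0.15 for WT replicates 1 to 3), and Trim13 to -0.010 (-0.0037 with the block, -0.10 without WT replicate 2, and -0.013 and -0.016 without the second and last Mark3-KO library). It turned Gm27010 to -0.42 (-0.42 with the block; with a library left out -0.43, -0.53 and -0.30 for Mark3-KO replicates 1 to 3 and -0.53, -0.27 and -0.44 for WT replicates 1 to 3), and Gm37420 was -0.010 under it without WT replicate 1. Under it Rbm14 was 0.0073 without Mark3-KO replicate 1, and without WT replicate 2 Hnrnpk was -0.046 and Spryd7 -0.0039. Mir17hg had a value without a filter alone. At 10 counts in all, depth limits Mir17hg. The snoRNA and microRNA precursor rows held few counts as well, in libraries made from selected polyadenylated RNA. The parts of depth and of that selection were not tested.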

Other observations

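Among 14073 genes with a mean of at least 1 CPM, 5 were at least 4 times as high in Mark3-KO replicate 3 as in any other library. They were Gm10233 (25.4 times), Malat1 (17.0 times), Gm6430 (8.10 times), Gm43549 (7.58 times) and Neat1 (5.66 times), chosen after their values were seen. The other libraries had 2 and 5 such genes (Mark3-KO replicates 1 and 2) and 6, 2 and 2 (WT replicates 1, 2 and 3). At a ratio of 2, WT replicate 1 had 95 genes, against 15, 13 and 18 in the Mark3-KO libraries and 8 and 10 in the other WT libraries.

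Among small RNA rows inside Neat1, 2 held most of their counts in different libraries, and how reads were shared between them was not tested. Gm27533 had 2, 133 and 24 counts in the Mark3-KO libraries and 3, 2 and 392 counts in the WT libraries. Gm28006 had 477, 2 and 179 counts in Mark3-KO and 777, 656 and 1 counts in WT. Gm27505, the other small row there, had 55, 41 and 32 counts in Mark3-KO and 40, 30 and 21 counts in WT.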
